A study of Mus musculus with 4 samples.

Results

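Cryab and its relatives among the small heat shock proteins were followed across mouse embryonic fibroblasts (MEFs) that differed in genotype and in the tonicity of their medium. The set of 6 genes was fixed by symbol: the small heat shock protein genes Cryab, Hspb1, Hspb2 and Hspb8, the co-chaperone gene Bag3, and the heat shock factor gene Hsf1. Of these, 5 were read by a probe set carrying 1 gene symbol, among 19938 genes so read, and Hsf1 was not analysed here. MEFs are connective tissue cells grown from embryos. The groups were cells labelled NFAT5/TonEBP knockout in hypertonic medium, the same in isotonic medium, wild-type cells in hypertonic medium and wild-type cells in isotonic medium. Unsynchronised cells spent 20 hours in their medium, and the hypertonic medium was raised to 450 mosmol/kg with NaCl. Each group was read on 1 Affymetrix Mouse Gene array, hybridised with a pool of 4 samples, so no spread between replicates was seen and no statistical test was made. The sources used here do not give the strain, the deleted part of Nfat5, or whether both genotypes came from littermates, so genotype and cell isolate cannot be told apart.

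Small heat shock proteins share a conserved crystallin domain, assemble into oligomers and hold partly unfolded proteins in a soluble state without using ATP. Cryab (alpha-B-crystallin) is abundant in lens, heart and skeletal muscle and binds intermediate filaments and actin, and Hspb2 is its neighbour in the genome. Hspb1 (Hsp27 in human, Hsp25 in mouse) guards actin filaments and is phosphorylated downstream of p38 kinase. Hspb8 binds Bag3, a co-chaperone that links it to Hsp70 and directs damaged filamin and other clients to selective autophagy, and Hsf1 is the transcription factor that drives heat shock genes under proteotoxic stress. NFAT5, also called TonEBP, is the transcription factor that switches on osmolyte transporter genes and some chaperone genes when the medium becomes hypertonic.

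Values are log2 signals as deposited, and a difference of 1 on that scale is 2-fold. Signals of different probe sets are not compared with each other. A gene was called measured in a comparison when its signal exceeded the dim limit, the median signal of all one-gene probe sets, on at least 1 of the arrays compared. That limit lay between 5.38 and 5.44 on the 4 arrays, whose values correlated with each other across probe sets at 0.979 to 0.989. The Nfat5 probe set read 8.24 in knockout-labelled hypertonic cells and 8.03 in knockout-labelled isotonic cells, against 8.19 in wild-type hypertonic and 7.74 in wild-type isotonic cells. It was therefore not lower in the cells labelled knockout; a probe set outside a deleted part checks nothing, and the cells are called knockout-labelled throughout. Of 10 fibroblast markers, 8 were above the dim limit on all 4 arrays, while Dcn and Lum, encoding the matrix proteoglycans decorin and lumican, were below it on all 4.

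Cryab was the member that differed most between the arrays. Its signal was 5.82 in knockout-labelled hypertonic cells and 6.30 in knockout-labelled isotonic cells, against 9.68 in wild-type hypertonic cells and 7.47 in wild-type isotonic cells. The wild-type hypertonic array stood far above the others, and both knockout-labelled arrays lay below both wild-type arrays. On the knockout-labelled arrays Cryab exceeded the dim limit by only 0.41 in hypertonic and 0.92 in isotonic medium, so a fold against those signals is less well determined than one between the wild-type arrays.

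**Figure D1:**
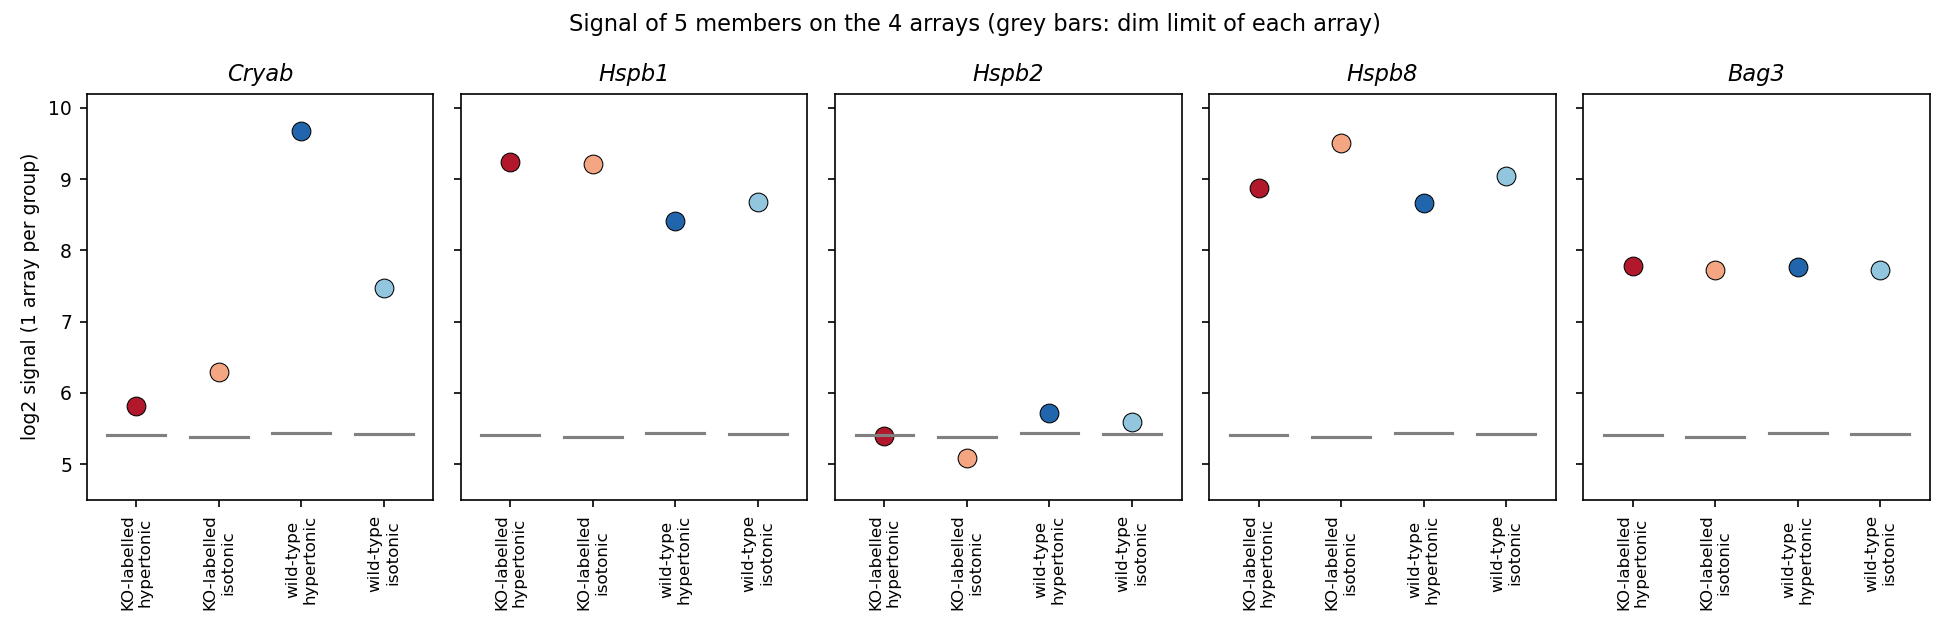
Log2 signal of 5 members (y axis) on the 4 arrays (x axis), 1 panel per gene and 1 point per array, with the dim limit of each array as a grey bar. Cryab reaches 9.68 on the wild-type hypertonic array and 5.82 on the knockout-labelled hypertonic array, while Bag3 stays between 7.72 and 7.77.

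The first comparison asked how the members responded to hypertonic medium in wild-type cells. Cryab was higher in hypertonic medium by 2.21 on the log2 scale, or 4.64-fold, which was rank 11 from the highest among 10134 measured genes. It was the 1 member of 5 measured that passed 2-fold, where 1.01% of all measured genes were higher and 0.414% were lower by that much. Hspb8 differed by -0.37, Hspb1 by -0.26, Hspb2 by 0.13 and Bag3 by 0.04. The median over the 5 members was 0.04, against -0.02 over all measured genes, and without Cryab it was -0.11. The other 4 members ranged from -0.37 to 0.13.

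Measurement error within the arrays was gauged from genes read by 2 measured probe sets. Over 457 such genes the wild-type response varied with an SD of 0.15 per probe set. The Cryab difference was many times that SD, those of Hspb8 and Hspb1 exceeded it, and those of Hspb2 and Bag3 did not. This SD covers the measurement on the array and not the spread between cultures, which pooling hid. Hspb1 was itself read by 2 probe sets, which differed by -0.26 and -0.31 in this comparison, so its readings lay within the probe spread. Whether either probe set also reads a near-identical copy of Hspb1 was not tested, so their likeness does not show that both read Hspb1 alone.

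The same contrast was made in knockout-labelled cells, with the order of these arrays resting on their labels. Cryab differed by -0.48, hypertonic minus isotonic, and Hspb8 by -0.64, the lowest value of the members. Hspb1 differed by 0.03 and Bag3 by 0.05. Hspb2 read 5.40 in hypertonic and 5.09 in isotonic knockout-labelled cells, below the dim limit on both arrays, so it was not measured here. None of the 4 measured members passed 2-fold, where 0.379% of all measured genes were higher and 3.08% were lower by that much. At 1.5-fold Hspb8 passed, as the 1 member of 4, where 4.28% of measured genes were higher and 12.0% lower. It no longer passed after quantile normalization (-0.55), cyclic loess normalization (-0.54) or centring (-0.55). The median of the 4 members was -0.22, against -0.09 over 10277 measured genes.

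The median of all genes in this comparison depended on scaling. Quantile normalization moved the median of all measured genes from -0.09 to 0.01 and the share of higher genes among those past 2-fold from 10.96% to 22.66%. That share was 22.07% once the differences were centred on their median. Cyclic loess left it at 12.66%, with a median of -0.02. Relative to the median of all genes, Cryab differed by -0.40 and Hspb8 by -0.55, still below 0, while Hspb1 lay at 0.12 and Bag3 at 0.14. The SD per probe set was 0.19 in this comparison, over 466 genes.

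**Figure D2:**
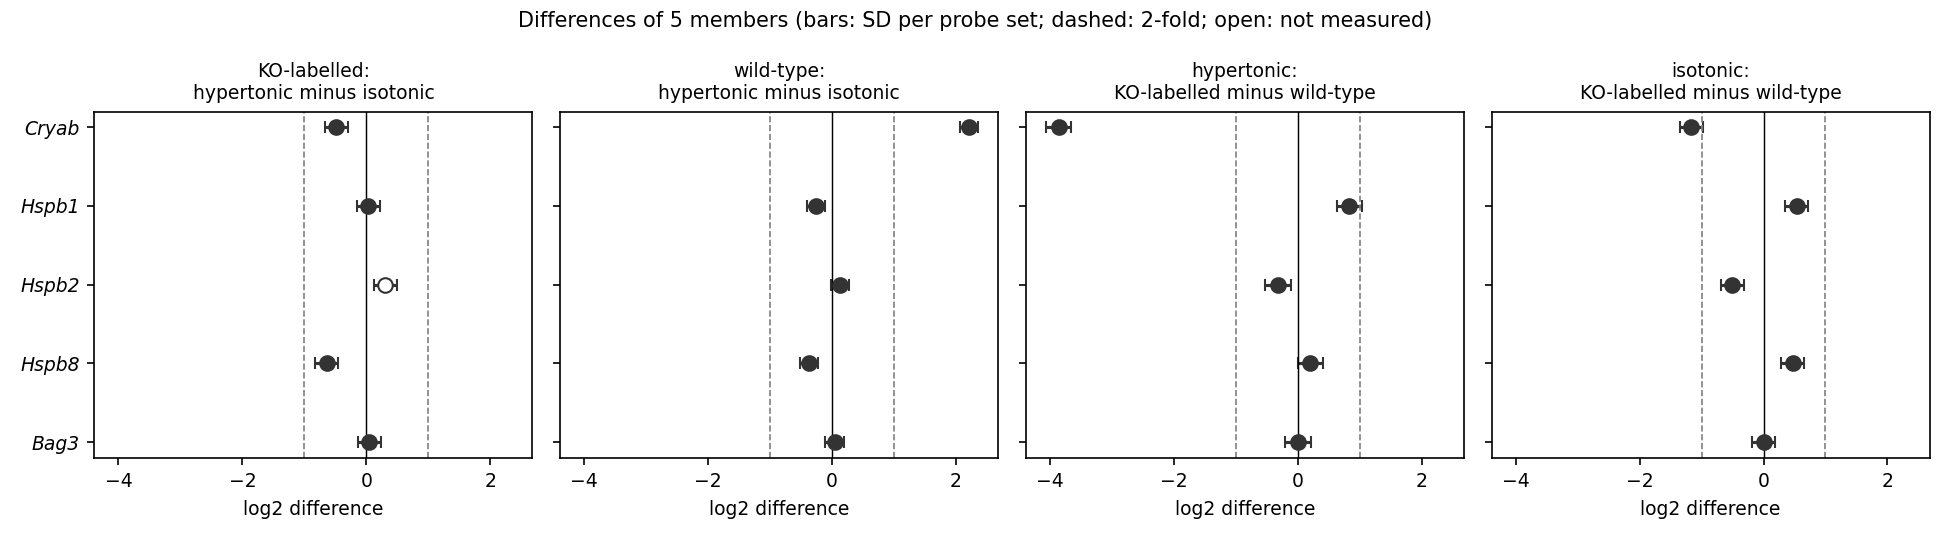
Log2 differences of 5 members (x axis) in 4 comparisons between arrays, 1 panel each, with the SD per probe set as horizontal bars, the 2-fold limits as dashed lines and an open point for a member that was not measured. Cryab passes 2-fold upward in the wild-type response (2.21) and downward in both genotype differences (-3.86 in hypertonic and -1.17 in isotonic medium), and every other point lies within the dashed lines.

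The genotypes were then compared within each medium. In hypertonic medium Cryab was lower in knockout-labelled than in wild-type cells by a log2 difference of -3.86, a 14.5-fold gap and rank 12 from the lowest of 10374 measured genes. In isotonic medium it was already lower, by -1.17 or 2.24-fold, at rank 96 from the lowest of 10191. Cryab was the 1 member past 2-fold in each medium. In hypertonic medium 2.57% of all measured genes passed that limit upward and 6.43% downward, and in isotonic medium 1.59% passed upward and 1.28% downward.

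Hspb1 went the other way. It read 9.24 in knockout-labelled hypertonic and 9.21 in knockout-labelled isotonic cells, against 8.41 in wild-type hypertonic and 8.67 in wild-type isotonic cells, so both knockout-labelled arrays were above both wild-type arrays. The genotype difference was 0.83 in hypertonic and 0.54 in isotonic medium, under 2-fold in each. In hypertonic medium it passed 1.5-fold, where 8.72% of measured genes were higher and 15.1% lower by that much. Its second probe set gave 0.81 and 0.47.

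Hspb8 had signals of 8.87 in knockout-labelled hypertonic and 9.51 in knockout-labelled isotonic cells, against 8.67 in wild-type hypertonic and 9.04 in wild-type isotonic cells. It was lower on the hypertonic than on the isotonic array in both genotypes, and higher in knockout-labelled cells by 0.20 in hypertonic and 0.47 in isotonic medium. Its partner gene Bag3 read 7.77 and 7.73 in knockout-labelled hypertonic and isotonic cells, against 7.77 and 7.72 in wild-type hypertonic and isotonic cells. These 4 values spanned 0.05, well inside the SD per probe set, and none of the comparisons separated the groups. Hspb8 varied by 0.84 over the same arrays.

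Hspb2 was dim throughout. It read 5.40 in knockout-labelled hypertonic and 5.09 in knockout-labelled isotonic cells, against 5.72 in wild-type hypertonic and 5.59 in wild-type isotonic cells, and no value was more than 0.28 above the dim limit. Its genotype difference was -0.32 in hypertonic and -0.50 in isotonic medium, the same sign as that of Cryab. Signals this close to the limit mix background with expression, so the size of any Hspb2 difference is poorly determined.

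The responses of the genotypes were set against each other by subtracting the wild-type response from that of the knockout-labelled cells. For Cryab this difference was -2.70, rank 20 from the lowest of 10542 measured genes. It was 0.30 for Hspb1, 0.18 for Hspb2, -0.27 for Hspb8 and 0.01 for Bag3. So 1 of the 5 members was at least 2-fold negative and none was at least 2-fold positive, where 5.53% of all measured genes were negative and 1.41% positive past that limit. The SD per probe set was 0.23.

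**Figure D3:**
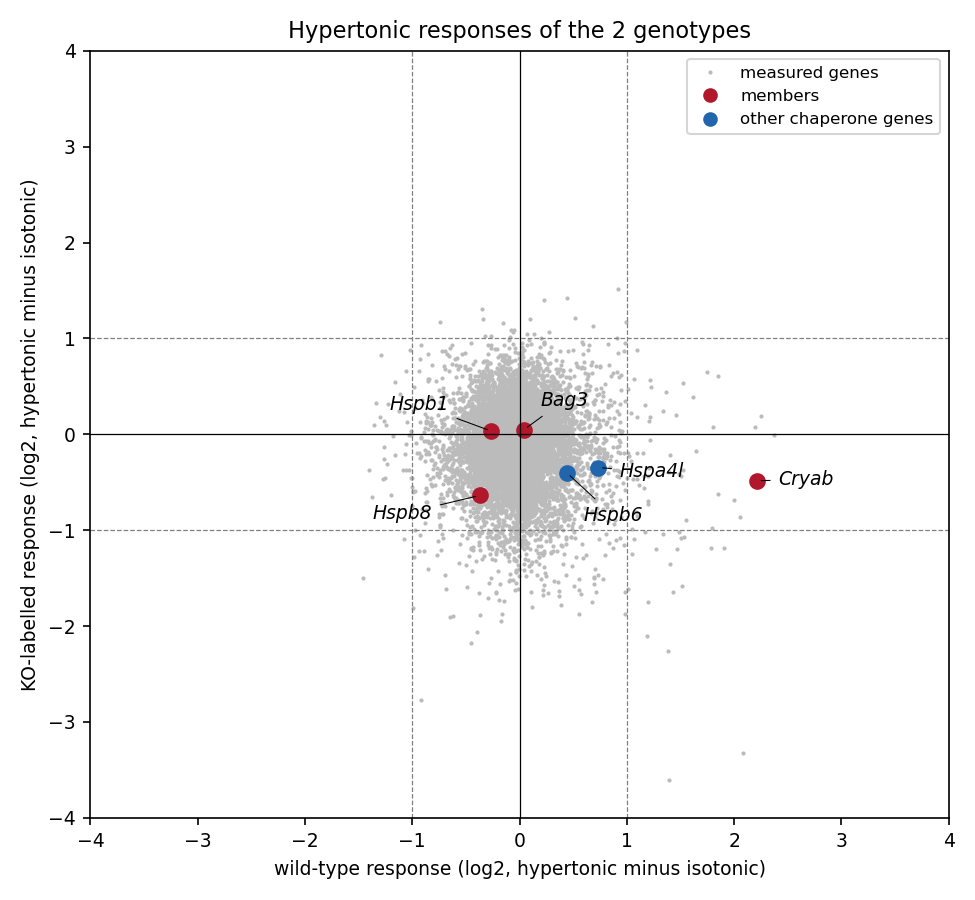
Knockout-labelled response (y axis) against wild-type response (x axis), both as log2 hypertonic minus isotonic, for genes measured in both (grey), 4 members (red) and the chaperone genes Hspb6 and Hspa4l (blue); dashed lines mark 2-fold. Cryab lies at 2.21 on the x axis and -0.48 on the y axis, and the other coloured genes lie within the dashed lines.

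The remaining small heat shock protein genes were mostly dim. Of Cryaa, Hspb3, Hspb6, Hspb7, Hspb9 and Odf1, only Hspb6, encoding the actin-associated protein Hsp20, was above the dim limit on any array. Hspb6 read 6.89 in knockout-labelled hypertonic and 7.29 in knockout-labelled isotonic cells, against 8.39 in wild-type hypertonic and 7.95 in wild-type isotonic cells. This is the order in which the arrays fell for Cryab, over a smaller range. Genes outside this family, among them Hspa4l, Slc5a3 and Acta2, fell in that order too, and the share of all genes doing so was not counted. Hspb6 was higher in hypertonic medium by 0.44 in wild-type cells and differed by -0.40 in knockout-labelled cells. It was at least 2-fold lower in knockout-labelled than in wild-type cells in hypertonic medium (-1.50) and differed by -0.66 in isotonic medium. In hypertonic medium 6.43% of all measured genes were lower by that much. Cryaa, the partner of Cryab in lens alpha-crystallin, read 4.01 to 4.21 on the 4 arrays, below the dim limit on each.

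The genes around Cryab were examined as well, a choice made with its values known. In the RefSeq order of protein-coding genes Cryab stands between 2310030G06Rik and Hspb2, followed outward by Dixdc1 and Dlat on one side and 1110032A03Rik and Fdxacb1 on the other. Dixdc1, a regulator of WNT signalling, read 5.43 in knockout-labelled hypertonic and 6.16 in knockout-labelled isotonic cells, against 6.33 in wild-type hypertonic and 5.51 in wild-type isotonic cells. Its response was -0.73 in knockout-labelled and 0.81 in wild-type cells. The knockout-labelled hypertonic and wild-type isotonic signals of Dixdc1 barely exceeded the dim limit, so both responses are poorly determined. For 1110032A03Rik the responses were -1.64 in knockout-labelled and 0.71 in wild-type cells, with a signal of 4.28, below the dim limit, on the knockout-labelled hypertonic array. Dlat, a subunit of pyruvate dehydrogenase, differed by -0.21 and -0.10, Fdxacb1 by -0.78 and -0.20, in knockout-labelled and wild-type cells, and 2310030G06Rik was below the dim limit on all 4 arrays. None of these neighbours came near the wild-type response of Cryab. In hypertonic medium 1110032A03Rik, like Cryab, was at least 2-fold lower in knockout-labelled than in wild-type cells (-2.16), where 6.43% of all measured genes were. Dixdc1 differed by -0.90, Fdxacb1 by -0.63 and Dlat by -0.13 in that comparison. In isotonic medium the genotype difference was 0.20 for 1110032A03Rik, 0.65 for Dixdc1, -0.05 for Fdxacb1 and -0.02 for Dlat.

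Cryab is also known as a marker of contractile cells, so markers of other cell types were read beside it. Of 15 striated muscle markers 11 were below the dim limit on all 4 arrays, among them Myod1, Myog, Des and Ckm, and the actin genes Actc1 and Acta1 were above it on all 4. Tnnt2, encoding cardiac troponin T, read 6.05 in knockout-labelled hypertonic cells and was below the limit on the other arrays. That signal was at least 2-fold higher than in knockout-labelled isotonic (1.29) and wild-type hypertonic cells (1.26). Of all measured genes, 0.379% and 2.57% were higher by that much in these comparisons. Both Tnnt2 differences are against signals below the limit, so they are poorly determined. Of 9 lens markers 8 were below the limit on all 4 arrays. All 5 glial and all 5 endothelial markers with a probe set were below it too, as were 4 of 6 epithelial and 5 of 6 leukocyte markers. Smooth muscle genes moved with genotype. In knockout-labelled cells 6.43% of all measured genes were at least 2-fold lower in hypertonic and 1.28% in isotonic medium. Of 4 measured smooth muscle genes, 3 were lower by that much in each medium. These were Acta2, smooth muscle actin (-2.50 in hypertonic and -1.50 in isotonic medium), Tagln, transgelin (-2.30 and -2.08), and Cnn1, calponin (-1.47 and -1.54). The summed signal of the 7 smooth muscle markers, on the log2 scale, was 9.98 and 10.33 in knockout-labelled hypertonic and isotonic cells, against 12.12 and 11.82 in wild-type hypertonic and isotonic cells. Myh11 and Des of that list were below the dim limit on all 4 arrays. The part of this shift in the Cryab and Hspb6 values was not tested, and fewer cells of a type cannot be told apart from less RNA per cell. The median response of the measured smooth muscle genes was -0.44 in knockout-labelled cells (3 genes) and 0.07 in wild-type cells (4 genes), with none past 2-fold.

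The fibroblast markers also differed: 6 of 8 measured were at least 2-fold lower in knockout-labelled cells in hypertonic medium and 2 of 8 in isotonic medium. Of all measured genes, 6.43% were lower by that much in hypertonic and 1.28% in isotonic medium. S100a4, counted in both media, is also in the tonicity list described below. The summed signal of the fibroblast markers was 13.31 and 13.87 in knockout-labelled hypertonic and isotonic cells, against 14.32 and 14.14 in wild-type hypertonic and isotonic cells. Their median response was -0.47 in knockout-labelled cells, with 7 of 8 below 0 and the collagen gene Col1a2 past 2-fold (-1.20), and 0.42 in wild-type cells, with 7 of 8 above 0 and none past 2-fold. All-gene medians of these responses were -0.09 and -0.02, and the share of all measured genes on either side of 0 was not counted. The part of the fibroblast markers in the Cryab values was not tested either.

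Genes driven by Hsf1 were then described, since Hspb1, Hspb8, Bag3 and Cryab are all heat shock genes. Of 23 listed targets 19 were measured, and none passed 2-fold in the response of either genotype. Their median response was -0.23 in knockout-labelled cells, with 17 of 19 below 0, and -0.16 in wild-type cells, with 15 of 19 below 0. All-gene medians were -0.09 and -0.02 in the same comparisons, and the share of all measured genes below 0 was not counted. After quantile normalization the knockout-labelled median was -0.14 for the targets and 0.01 for all measured genes. Past 2-fold, 0.379% of all measured genes were higher and 3.08% lower in knockout-labelled cells, and 1.01% and 0.414% in wild-type cells. The Hsp40 gene Dnajb1 differed by -0.07 in knockout-labelled and -0.44 in wild-type cells, the mitochondrial chaperonin gene Hspd1 by -0.32 and -0.46, and the constitutive Hsp70 gene Hspa8 by -0.12 and -0.07.

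The 3 highest wild-type responses of the list were of the Hsp70 and Hsp110 families. Not all genes of these families did so: Hspa4 differed by 0.21 in knockout-labelled and -0.225 in wild-type cells. Hspa4l, an Hsp110-family gene known from mouse to respond to osmotic stress, read 8.47 in knockout-labelled hypertonic and 8.82 in knockout-labelled isotonic cells, against 9.78 in wild-type hypertonic and 9.05 in wild-type isotonic cells. It differed by -0.35 in knockout-labelled and 0.73 in wild-type cells, and the difference of the responses was -1.08. Hspa1a, the stress-inducible Hsp70 gene, differed by -0.17 in knockout-labelled and 0.38 in wild-type cells, and Hsph1, another Hsp110-family gene, by -0.15 and 0.36. In hypertonic medium Hspa4l (-1.31) and Hspa1a (-1.03) were the 2 of 19 targets at least 2-fold lower in knockout-labelled cells, and none was higher, where 6.43% of all measured genes were lower and 2.57% higher. After quantile normalization, and with the dim limit at the 75th percentile, 1 of them passed. Hspa1a can share probes with its near-identical copy Hspa1b, which was not analysed here.

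Sequences at the starts of 3 members are shown because they carry the letters of a heat shock element; all 3 genes stayed under 2-fold. RefSeq promoter windows of build GRCm38.p6, from 250 bases before to 50 after a gene's start, were available for 3 of the 6 members, Hspb1, Hspb8 and Bag3. No window was at hand for Cryab, Hspb2 or Hsf1, so their promoters were not searched. The paired repeats GAANNTTC and TTCNNGAA, which stand for the binding units of heat shock factors, and TGGAAA, the core letters bound by NFAT proteins including NFAT5, were searched on both strands. GAANNTTC was found in all 3 windows and in 7.86% of 32851 windows of the same length, TTCNNGAA in none of the 3 and in 8.52%, and TGGAAA in that of Hspb1 and in 21.4%. Capitals mark matches, and positions are counted from the gene's start, which is 1. The Hspb1 stretch lies at chr5:135887669-135887918 on the plus strand, the Hspb8 stretch at chr5:116422844-116422873 on the minus strand and the Bag3 stretch at chr7:128523603-128523632 on the plus strand.
Hspb1: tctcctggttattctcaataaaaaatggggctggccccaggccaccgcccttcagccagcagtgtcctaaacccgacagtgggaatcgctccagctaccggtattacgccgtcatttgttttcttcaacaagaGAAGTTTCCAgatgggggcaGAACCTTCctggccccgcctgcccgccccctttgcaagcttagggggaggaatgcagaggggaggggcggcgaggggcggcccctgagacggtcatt
Hspb8: agaagccaggaGAAGTTTCtaggctcgcga
Bag3: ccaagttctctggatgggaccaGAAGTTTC

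The Hspb1 promoter holds 2 heat shock matches, at -117 to -110 and at -97 to -90. The NFAT core letters read on the minus strand at -113 to -108, so they overlap the first heat shock match. The matches of Hspb8 (3 to 10) and Bag3 (43 to 50) lie just after the start. A match is a description of letters and not a bound site. Hspb1, whose window holds both kinds of letters, differed by -0.26 in wild-type cells in hypertonic medium.

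Genes known to act with the members were read next. Of 8 measured genes of the heat shock factor family and its regulators, none passed 2-fold in any of the 5 comparisons. Hsf2, another heat shock factor gene, came nearest. It was higher in knockout-labelled than in wild-type cells by 0.88 in hypertonic and 0.81 in isotonic medium. The heat shock factor gene Hsf4 differed by -0.42 in knockout-labelled and 0.14 in wild-type cells, and Hikeshi, encoding the importer that carries Hsp70 into the nucleus, by -0.50 and 0.07. All 5 other BAG family genes were measured and none passed 2-fold. Bag2 differed by -0.24 in knockout-labelled and -0.45 in wild-type cells, and Bag5 by -0.41 and 0.11. Of the partners of Bag3 and Hspb8 in selective autophagy, none of 14 measured passed 2-fold in knockout-labelled cells and none of 15 in wild-type cells. The medians of these partners were 0.01 in knockout-labelled and 0.06 in wild-type cells. Stx18, a SNARE gene, had the lowest knockout-labelled response of that list, -0.86, against 0.09 in wild-type cells. Of all measured genes, 0.379% were at least 2-fold higher and 3.08% lower in the knockout-labelled response. In the wild-type response these shares were 1.01% and 0.414%. A count of 0 in a list this short therefore does not set it apart from all genes.

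Cytoskeletal clients of small heat shock proteins were read in the same way. None of 12 measured passed 2-fold in either response, with medians of -0.18 in knockout-labelled and 0.00 in wild-type cells. After quantile normalization 1 passed in the knockout-labelled response and 1 in the difference of responses, where none passed as deposited. All-gene shares past 2-fold in both responses were the low ones just given, so a count of 0 does not set these clients apart. Nes, encoding the intermediate filament protein nestin, was at least 2-fold lower in knockout-labelled than in wild-type cells in isotonic medium (-1.34). The keratin genes Krt18 and Krt8 differed by 0.91 and 0.32 in knockout-labelled cells and by 0.02 and -0.35 in wild-type cells. Vim, encoding vimentin, the main intermediate filament of fibroblasts and a known partner of Cryab, differed by -0.22 in knockout-labelled and 0.02 in wild-type cells.

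**Figure D4:**
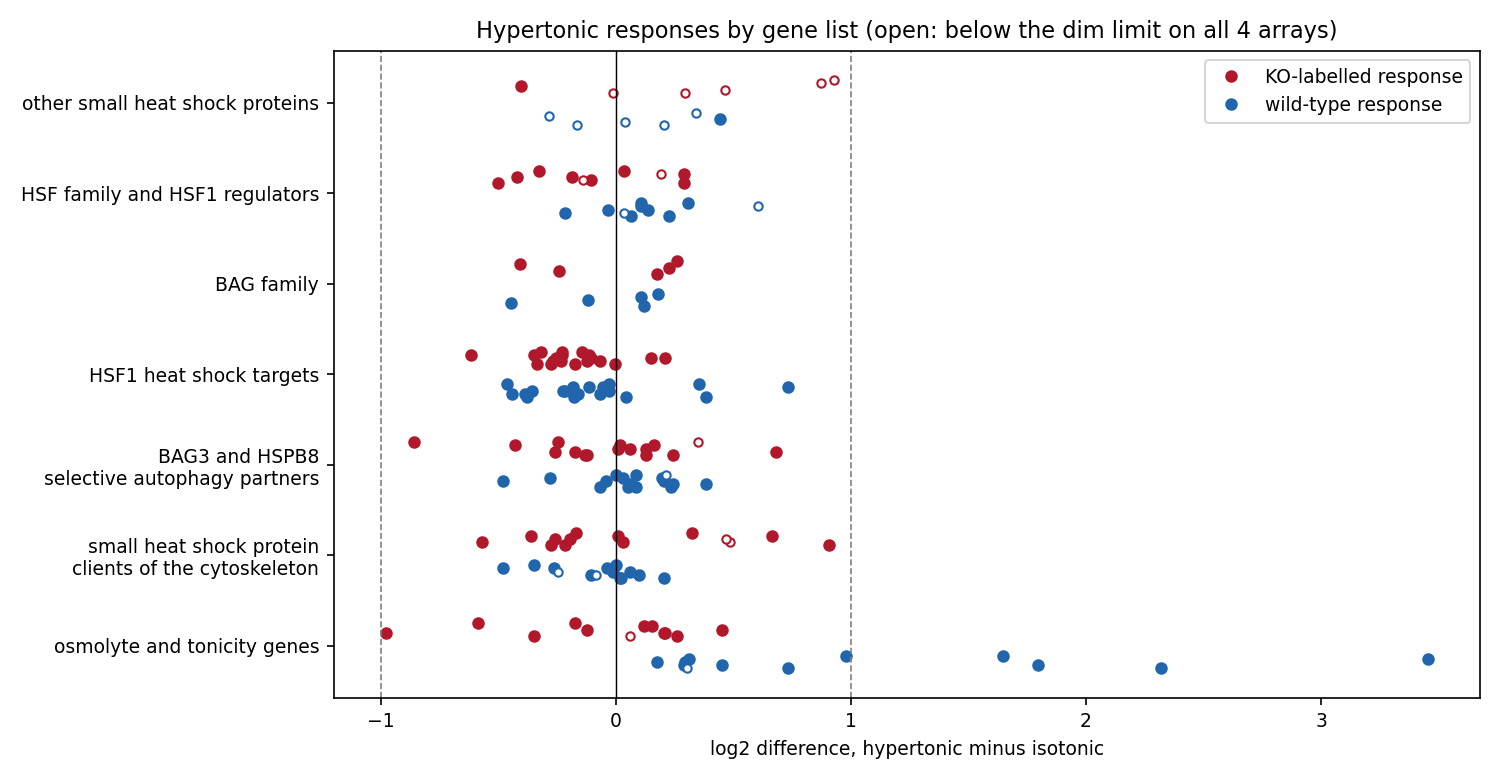
Log2 response to hypertonic medium (x axis) of each gene of 7 lists (y axis), knockout-labelled in red above wild-type in blue, with open points for genes below the dim limit on all 4 arrays and dashed lines at 2-fold. Only the osmolyte and tonicity list has points past 2-fold among genes above the limit, 4 in wild-type cells and none in knockout-labelled cells.

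Genes of a tonicity list were set beside Cryab as well. Of 14 listed 11 were measured in wild-type cells, with a median of 0.73 against -0.02 over all measured genes. All 11 were above 0, and the share of all measured genes above 0 was not counted. Of the 11, 4 were at least 2-fold higher (Ranbp3l at 3.45, Slc6a12, Slc5a3 and Aqp1), where 1.01% of all measured genes were higher and 0.414% lower by that much. Slc6a12 and Ranbp3l were above the dim limit on the wild-type hypertonic array alone, so they entered this count through the array where they were high. When the limit was raised to the 75th percentile, 2 genes passed and the median was 0.45. In knockout-labelled cells none of 9 measured passed 2-fold, where 0.379% of all measured genes were higher and 3.08% lower by that much. The median there was -0.12, against -0.09 over all measured genes. The list holds genes picked with results of these cells known, so its counts are a description. Cryab at 2.21 lay between the betaine transporter gene Slc6a12 (2.32) and the myo-inositol transporter gene Slc5a3 (1.80) in the wild-type response. Slc6a12 read 4.06 in wild-type isotonic cells, so its difference is poorly determined.

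The genes whose profile was most like that of Cryab were found by distance between log2 values, each gene's mean over the 4 arrays subtracted, among 10228 genes. The nearest was Fgf10, a fibroblast growth factor gene, at a distance of 0.40. It was followed by Ifi27l2a, an interferon-induced gene (0.47), Slc5a3 (0.56), Slc1a3, a glutamate transporter gene (0.57), Cped1 (0.74), Itm2a (0.80), Aqp1, a water channel gene (0.82), and Fmod, encoding the matrix protein fibromodulin (0.84). Fgf10 read 3.95 in knockout-labelled hypertonic and 4.27 in knockout-labelled isotonic cells, both below the dim limit, against 7.43 in wild-type hypertonic and 5.75 in wild-type isotonic cells. Slc5a3 read 6.44 and 7.42 in knockout-labelled hypertonic and isotonic cells, against 10.03 and 8.23 in wild-type hypertonic and isotonic cells, above the limit on all 4 arrays. Ifi27l2a was above the limit on the wild-type hypertonic array alone, Itm2a and Fmod were above it on the 2 wild-type arrays, and Slc1a3 and Cped1 were below it on the knockout-labelled hypertonic array, so their likeness to Cryab elsewhere is poorly determined. No small heat shock gene was among these 8. Hspb6 ranked 173 at 1.91 and Hspa4l ranked 220 at 2.04, while Hspb2 ranked 1423, Bag3 4600, Hspb8 9128 and Hspb1 9869. With 4 arrays, each from 1 pool, such likeness describes these arrays only.

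**Figure D5:**
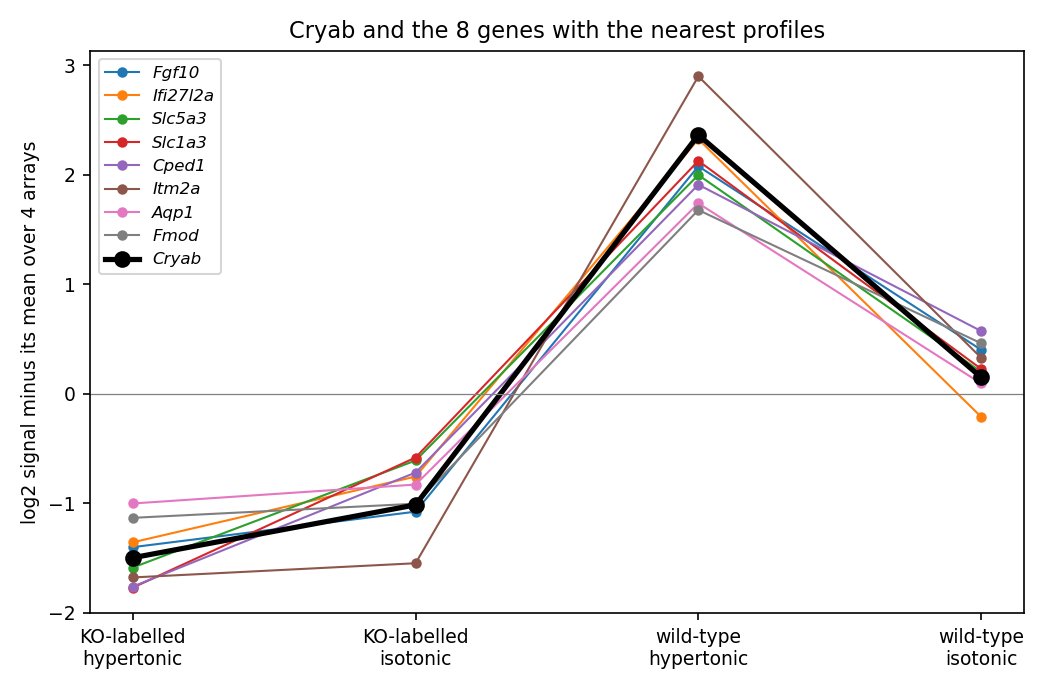
Log2 signal minus the gene's mean over the 4 arrays (y axis) for Cryab (black) and the 8 genes with the nearest profiles (coloured), by array (x axis). All 9 lines peak on the wild-type hypertonic array and are below 0 on both knockout-labelled arrays.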

How the data were processed

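The table deposited by the authors gives 1 value per probe set and array for 35557 probe sets, taken as log2 signal from its range of 1.57 to 13.94. The submitters' processing notes name MAS5. No source used here gives its version, the background correction or the normalization. Names came from the platform annotation, in which 21789 probe sets had 1 symbol and were used, 1621 had several and 12147 had none. For genes with several probe sets the one with the highest mean was used. Differences were taken hypertonic minus isotonic and knockout-labelled minus wild-type, and counted at 2-fold. With 1 array per group no test was possible. The members and gene lists were chosen with earlier results of these data known. The naming rule took all members, list genes past 2-fold or among the 3 largest differences of responses of their list, and the 8 nearest profiles; the text uses a subset, and names some others for their role, chosen after their values were seen. Alternatives were quantile and cyclic loess normalization (limma 3.58.1, R 4.3.3), median centring, other dim limits, the mean of probe sets and a 1.5-fold limit. Counting and distances were tested on simulated data. Python 3.11.15, pandas 2.3.3 and numpy 2.4.6 were used.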

Additional observations from a re-analysis of the deposited data

Results flagged for a closer look

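The members, the neighbours of Cryab, the nearest profiles and the list genes taken by the naming rule were examined, and those measured in both responses were singled out when the knockout-labelled and wild-type responses had opposite signs, each beyond the SD per probe set; with 1 array per group the difference between the responses was not tested. Cryab met this with a difference of -2.70, and the other small heat shock gene that did so was Hspb6 (-0.84). The Hsp110-family gene Hspa4l had -1.08. Among genes of the tonicity list and the nearest profiles, Slc5a3 had -2.78, S100a4 -1.56, Slc1a3 -3.09 and Cped1 -2.38. The nearest profiles were picked for likeness to Cryab, and list genes partly for large differences of responses. That such genes met the rule was therefore largely set by the choice, and the share of all genes meeting it was not counted. The neighbours of Cryab that met it were Dixdc1 (-1.54) and 1110032A03Rik (-2.35). Nes had 0.93 and Krt8 0.67. Signals of Dixdc1 and Krt8 lay near the dim limit on some arrays, so their values are poorly determined. The same holds for 1110032A03Rik (4.28), Slc1a3 (4.43) and Cped1 (4.63), which were below that limit on the knockout-labelled hypertonic array. Of the fibroblast and smooth muscle markers, Col3a1 had -1.30, Pdgfra -1.23, Pdgfrb -0.98, Acta2 -1.0 and Thy1 0.92. The striated muscle marker Actc1 had 0.40. Signals of Pdgfra and Actc1 also lay near the dim limit on some arrays.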

How the results depend on the processing

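Over 4 alternatives the Cryab differences kept their sign and their side of 2-fold: 2.21 to 2.26 in the wild-type response, -0.48 to -0.38 in the knockout-labelled response, -1.20 to -1.17 and -3.86 to -3.82 for the isotonic and hypertonic genotype differences, and -2.70 to -2.63 for the difference of responses. The 80 alternative values of the other members moved by less than the SD per probe set; Bag3 changed sign around 0 in the isotonic genotype difference (-0.04 to 0.00). The number of members past the limit changed in 3 cases. At 1.5-fold it was 1 in the knockout-labelled response (Hspb8, not under any other scaling) and 2 in the hypertonic genotype difference (Cryab and Hspb1). When the dim limit was raised to the 75th percentile it was 0 in the isotonic genotype difference, because Cryab then fell below the limit on both arrays. With no dim limit the median of the other small heat shock genes in the hypertonic genotype difference was 0.21, since it then takes in 5 dim genes. With the limit it was -1.50 and rested on Hspb6 alone. Of 454 alternative counts and medians of the gene lists, 419 stayed, 34 moved and this 1 reversed. A median moved when it shifted by the SD per probe set or more, and a count when it changed by more than 1.5-fold or between 0 and any other number. Of 8 nearest profiles, 5 stayed with the higher dim limit, and all 8 under the others tried. No paired analysis was possible because each group has 1 array. The deposited values give no scanner background, and signals near the dim limit bound what can be said of Hspb2 and of Cryab in knockout-labelled cells.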
